A study of Mus musculus with 21 samples.

Results

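The tubulin genes and stathmin were the 10 genes Tuba1a, Tuba1b, Tuba1c and Tuba4a, which encode alpha-tubulins, Tubb2a, Tubb2b, Tubb4b, Tubb5 and Tubb6, which encode beta-tubulins, and Stmn1, which encodes stathmin. They were taken by gene symbol from the 35598 genes in the deposited tables, and all 10 passed the filter on low counts that left 13898 genes for testing. Tubb6 passed it through the nephritis libraries, since it had at most 1 read in 5 of the 6 PBS libraries, so its differences from PBS are not read as support. The group was chosen by a measured value, since Tuba1b was higher at day 4 of nephritis than in mice given PBS. Values of day 4 against PBS, and of day 11 against day 4, are therefore descriptions without a test. Each comparison of day 11 with PBS was tested but shares its PBS libraries with the contrast the group was chosen by.

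Microtubules are hollow filaments built from dimers of alpha- and beta-tubulin, and several genes encode near-identical forms (isotypes) of each. Cells control the amount of tubulin in part through the stability of tubulin mRNA, which falls when free dimers accumulate. Stathmin binds free tubulin dimers and promotes filament shrinkage, and it is abundant in dividing cells. In podocytes, the epithelial cells of the glomerular filter, microtubules run through the cell body and the major processes.

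The material was glomeruli laser-microdissected from frozen kidneys of female mice that were 3 months old, and 21 libraries were made with a 3′ tag method (QuantSeq FWD), which reads the end of a polyadenylated transcript once whatever its length. Nephritis, an immune injury of the glomerulus, was induced by decomplemented nephrotoxic serum given intravenously on 2 consecutive days, and control mice received PBS. Mice with floxed Epac1 alleles (Epac1fl/fl) and a podocyte-specific Cre (NPHS2Cre), called cKO, gave 3 PBS, 4 day 4 and 4 day 11 libraries. Their littermates with Epac1fl/fl and no Cre, called flox, gave 3 PBS, 3 day 4 and 4 day 11 libraries. Both genotypes carry the floxed alleles, and there is no group with Cre alone, so an effect of Cre and an effect of the deletion cannot be told apart. The labels number the samples of a group without saying that each is a separate mouse, so p-values measure the spread between these samples, which may be technical.

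Library totals ran from 4550550 to 24295712 reads, and between 7871 and 13006 genes had reads. Rapgef3, the gene of Epac1, had 63.4 to 199.5 CPM (counts scaled to a common library size) with a median of 145 CPM in the 11 cKO libraries, and 124 to 347 CPM with a median of 211 CPM in the 10 flox libraries; the ranges overlapped, other glomerular cells keep the gene, and whether the 3′ tag lies in the deleted part is not given in the sources used here. The summed level of 12 podocyte markers ran from 3919 to 8626 CPM, and 11 or 12 of them had reads in each library. Markers of the proximal tubule, which surrounds glomeruli, summed to between 2091 and 13360 CPM. The cKO day 4 replicate 3 library had the fewest detected genes and the cKO day 11 replicate 3 library the fewest reads, and results were also computed without both. In whole glomeruli, fewer cells of a type and less RNA per cell cannot be told apart.

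Tuba1b was the most abundant of the 10 genes in every group. The gene lies at chr15:98931425-98934565 on the minus strand of GRCm38. In PBS mice it had 498, 518 and 448 CPM in cKO libraries and 356, 298 and 357 CPM in flox libraries. At day 4 it had 1062, 1084, 631 and 1158 CPM in cKO libraries and 847, 654 and 1251 CPM in flox libraries. At day 11 it had 681, 623, 561 and 709 CPM in cKO libraries and 723, 707, 564 and 822 CPM in flox libraries. All 7 day 4 libraries and all 8 day 11 libraries lay above all 6 PBS libraries. Tuba1b and Tuba1a were the 2 of the 10 genes whose day 4 libraries all lay above the PBS libraries. This held for 0.101% of all genes tested, a share from which nothing is read, since the group was chosen by the day 4 contrast. Tuba1b was the 1 gene of the 10 for which the day 11 libraries did so, against 0.194% of all genes tested. That share is not read as support either, since Tuba1b was chosen by a contrast with the same 6 PBS libraries. Tuba1b averaged 955 ± 246 CPM at day 4 and 412 ± 88.4 CPM in PBS mice over both genotypes (SD, n = 7 and n = 6). By group mean the order of its level was cKO day 4, flox day 4, flox day 11, cKO day 11, cKO PBS and flox PBS. The libraries of the first 3 groups in that order overlapped with those of the next group, whereas cKO day 11 did not overlap with cKO PBS, nor cKO PBS with flox PBS.

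**Figure D1:**
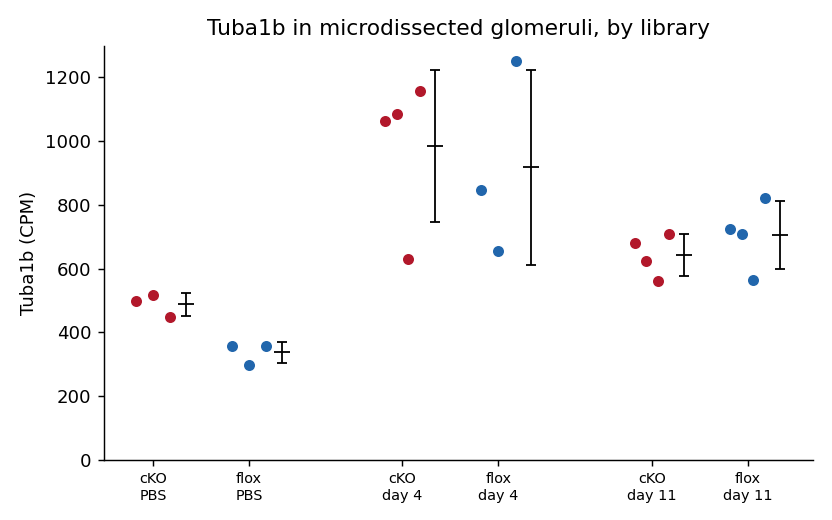
Tuba1b level in CPM (vertical axis, linear from 0) in each library, by stage, with cKO in red left of flox in blue; points are libraries and the bars beside them the mean ± SD of the group (n = 3 or 4). All day 4 and day 11 libraries sit at 561 CPM or more, and all PBS libraries at 518 CPM or less.

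The other alpha-tubulin genes were lower. Tuba1a, an isotype best known from developing neurons, lies beside Tuba1b at chr15:98949837-98953703 on the minus strand. It had 67.9, 34.7 and 89.5 CPM in cKO PBS libraries and 92.8, 64.1 and 64.5 CPM in flox PBS libraries. In mice at day 4, Tuba1a had 168.6, 210, 93.6 and 282 CPM in cKO libraries and 214, 124 and 258 CPM in flox libraries. In mice at day 11, Tuba1a had 226, 191, 132 and 84.5 CPM in cKO libraries and 136, 154, 124 and 269 CPM in flox libraries. The lowest day 4 library, cKO day 4 replicate 3, lay just above the highest PBS library, and 7 of the 8 day 11 libraries lay above every PBS library.

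Tuba1c, on the same chromosome at chr15:99029891-99038110 on the plus strand, varied more between libraries of a group. It had 70.8, 13.2 and 126 CPM in cKO PBS libraries and 1.16, 95.8 and 7.06 CPM in flox PBS libraries. At day 4 the cKO libraries ran from 29.1 to 175 CPM with a median of 118 CPM, and the flox libraries from 111 to 167.6 CPM with a median of 112 CPM. In mice at day 11, Tuba1c had 142, 257, 257 and 223 CPM in cKO libraries and 18.1, 123, 224 and 144 CPM in flox libraries. The 4 cKO day 11 libraries lay above the 3 cKO PBS libraries, while flox day 11 replicate 1 fell within the flox PBS range. Tuba4a, an isotype of differentiated tissues, lies on chromosome 1 and averaged 98.2 ± 63.5 CPM at day 4 (n = 7), 82.3 ± 30.1 CPM at day 11 (n = 8) and 50.4 ± 17.2 CPM in PBS mice (SD, n = 6), and its groups overlapped in every comparison. Tuba4a overlaps Stk16, a gene on the opposite strand with reads in these libraries, and the strand setting of the counting was not given. Among other genes that overlap a member in the annotation, Gm41396 on the opposite strand of Tuba1b had at most 1 read in a library and Fam166a on the opposite strand of Tubb4b at most 2, and Gm49450, which spans Tuba1a and Tuba1b on their strand, and Gm23634 in Stmn1 had 0.

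The 3 Tuba1 genes are near-identical copies. Of the 50-base words in the last 500 bases of the transcript, where 3′ tags fall, 54.8% of those of Tuba1a, 51.4% of those of Tuba1b and 68.1% of those of Tuba1c occurred in another gene, mostly in each other, and their estimated counts were not whole in 20 or 21 of the 21 libraries. Reads can thus have been divided between them, and how they split is uncertain. Of the words of Tubb2a, 41.0% occurred in Tubb2b. For Tuba4a, Tubb4b, Tubb5, Tubb6 and Stmn1 no word was shared.

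Promoter windows from RefSeq (GRCm38.p6), the 250 bases before the start of the RefSeq transcript, were matched for 7 of the 10 genes. The GENCODE gene starts further upstream for some of them, so that 175 of the 250 bases of Tuba1b, 202 of those of Tuba1a, all of those of Tuba4a and 5 of those of Tubb5 lie inside the gene as GENCODE annotates it. The bases before the GENCODE gene are shown 5′ to 3′ for 3 genes, so that the genes can be compared at the sequence level. Of these, 2 are the alpha-tubulin genes whose day 4 libraries did not overlap with PBS. The third is the beta-tubulin gene with the highest mean over all 21 libraries. Capitals mark the CCAAT box (CCAAT) and the GC box (GGGCGG), each searched on both strands. They are 75 bases for Tuba1b at chr15:98934566-98934640, 48 for Tuba1a at chr15:98953704-98953751 and 250 for Tubb4b at chr2:25224703-25224952, all on the minus strand.
Tuba1b: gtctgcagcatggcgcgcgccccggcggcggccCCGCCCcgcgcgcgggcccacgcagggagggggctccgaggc
Tuba1a: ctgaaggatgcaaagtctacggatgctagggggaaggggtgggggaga
Tubb4b: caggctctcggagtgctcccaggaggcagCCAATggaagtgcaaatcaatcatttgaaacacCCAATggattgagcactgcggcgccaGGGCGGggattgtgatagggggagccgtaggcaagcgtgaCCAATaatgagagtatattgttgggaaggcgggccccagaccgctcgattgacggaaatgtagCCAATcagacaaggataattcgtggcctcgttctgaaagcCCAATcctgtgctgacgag
Over the whole RefSeq window, gene bases included, Tuba1b held 2 GC boxes and no CCAAT box, Tuba1a 1 of each, and Tubb4b 5 CCAAT boxes and 1 GC box. Of the 7 windows, 4 held a CCAAT box and 5 a GC box, against 33.8% and 32.7% of 32851 promoters of that length. The G and C share was 75.6% for Tuba1b, 56.8% for Tuba1a and 54.4% for Tubb4b. A TATA box (TATAAA) was found in 1 of the 7, that of Tubb2a, against 12.4% of all promoters. E2F motifs (TTTCGCGC, TTTGGCGC, TTTCCCGC or TTTGCCGC), letters known from cell cycle genes, were in 0 of 7 against 1.86%, and the CArG box, known from actin cytoskeleton genes, in 0 of 7 against 1.47%.

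Among the beta-tubulin genes, Tubb4b, a broadly expressed isotype at chr2:25222160-25224702, had the highest mean over all 21 libraries and the smallest spread. It had 213, 145 and 258 CPM in cKO PBS libraries and 301, 159 and 174 CPM in flox PBS libraries. Tubb4b day 4 levels were 281, 385, 419 and 289 CPM in cKO libraries and 346, 336 and 437 CPM in flox libraries. Tubb4b day 11 levels were 283, 223, 294 and 253 CPM in cKO libraries and 220, 273, 454 and 271 CPM in flox libraries. Within each genotype the day 4 libraries lay above the PBS libraries, and at day 11 they overlapped.

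Tubb5, the main beta-tubulin of proliferating cells, lies at chr17:35833921-35838306. In PBS mice it had 160, 102 and 83.8 CPM in cKO libraries and 187, 51.4 and 98.2 CPM in flox libraries. At day 4 it had 359, 76.3, 0.0769 and 269 CPM in cKO libraries, the third value being 1 read in the library with the fewest detected genes, and 251, 140 and 488 CPM in flox libraries. At day 11 it had 343, 357, 313 and 293 CPM in cKO libraries and 38.5, 221, 418 and 304 CPM in flox libraries. The cKO day 11 libraries were close together and all above the cKO PBS libraries, and the flox day 11 libraries spread over both sides of the flox PBS libraries.

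Tubb6, a beta-tubulin known from skeletal muscle regeneration and present at low levels in most tissues, had the lowest level of the 10 genes. It had 0, 0 and 7.93 CPM in cKO PBS libraries and 0.0526, 0 and 0 CPM in flox PBS libraries, the first of the flox values being 1 read. At day 4 it had 12.8, 0, 2.23 and 29.9 CPM in cKO libraries and 24.9, 15.9 and 35.7 CPM in flox libraries. At day 11 it had 21.3, 13.7, 1.34 and 47.6 CPM in cKO libraries and 0, 9.20, 3.25 and 11.1 CPM in flox libraries. The 3 flox day 4 libraries lay above the flox PBS libraries, and the other nephritis groups overlapped with PBS of their genotype. The ratio of reads, scaled by library size, was 1370 for flox day 4 over flox PBS with an exact interval of 246 to 54300, and 379 for flox day 11 over flox PBS with an exact interval of 67.6 to 15000 (95% intervals that cover counting error only). Fitted fold changes of Tubb6 depend on the few PBS reads.

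Tubb2a and Tubb2b, neighbouring isotypes of chromosome 13 that are prominent in neurons, differed in their pattern. Of the words of Tubb2a, 41.0% occurred in Tubb2b, and both had estimated counts that were not whole in 13 of the 21 libraries. Reads can thus have been divided between them, and their difference in pattern can depend on how reads were split. Tubb2a had 25.7, 80.1 and 40.1 CPM in cKO PBS libraries and 52.7, 1.93 and 88.2 CPM in flox PBS libraries. At day 4 it had 111, 75.7, 185 and 83.5 CPM in cKO libraries and 45.1, 58.3 and 37.1 CPM in flox libraries, so that all cKO libraries lay above all flox libraries. At day 11 it had 68.0, 69.3, 5.60 and 60.5 CPM in cKO libraries and 59.5, 120, 63.9 and 121 CPM in flox libraries, which overlapped. Tubb2b averaged 123 ± 65.0 CPM at day 4 (n = 7), 107.8 ± 36.6 CPM at day 11 (n = 8) and 78.1 ± 46.1 CPM in PBS mice (SD, n = 6), and had no read in flox PBS replicate 1.

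Stmn1 lies at chr4:134468320-134473843 on the plus strand. It had 54.1, 18.0 and 30.6 CPM in cKO PBS libraries and 86.4, 7.46 and 170 CPM in flox PBS libraries. Stmn1 day 4 levels were 76.6, 222, 17.4 and 70.6 CPM in cKO libraries and 172, 52.5 and 90.9 CPM in flox libraries. Stmn1 day 11 levels were 138, 164, 248 and 85.3 CPM in cKO libraries and 89.8, 98.3, 142 and 134 CPM in flox libraries. All 4 cKO day 11 libraries lay above the 3 cKO PBS libraries, and the flox day 11 libraries lay within the wide flox PBS range.

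**Figure D2:**
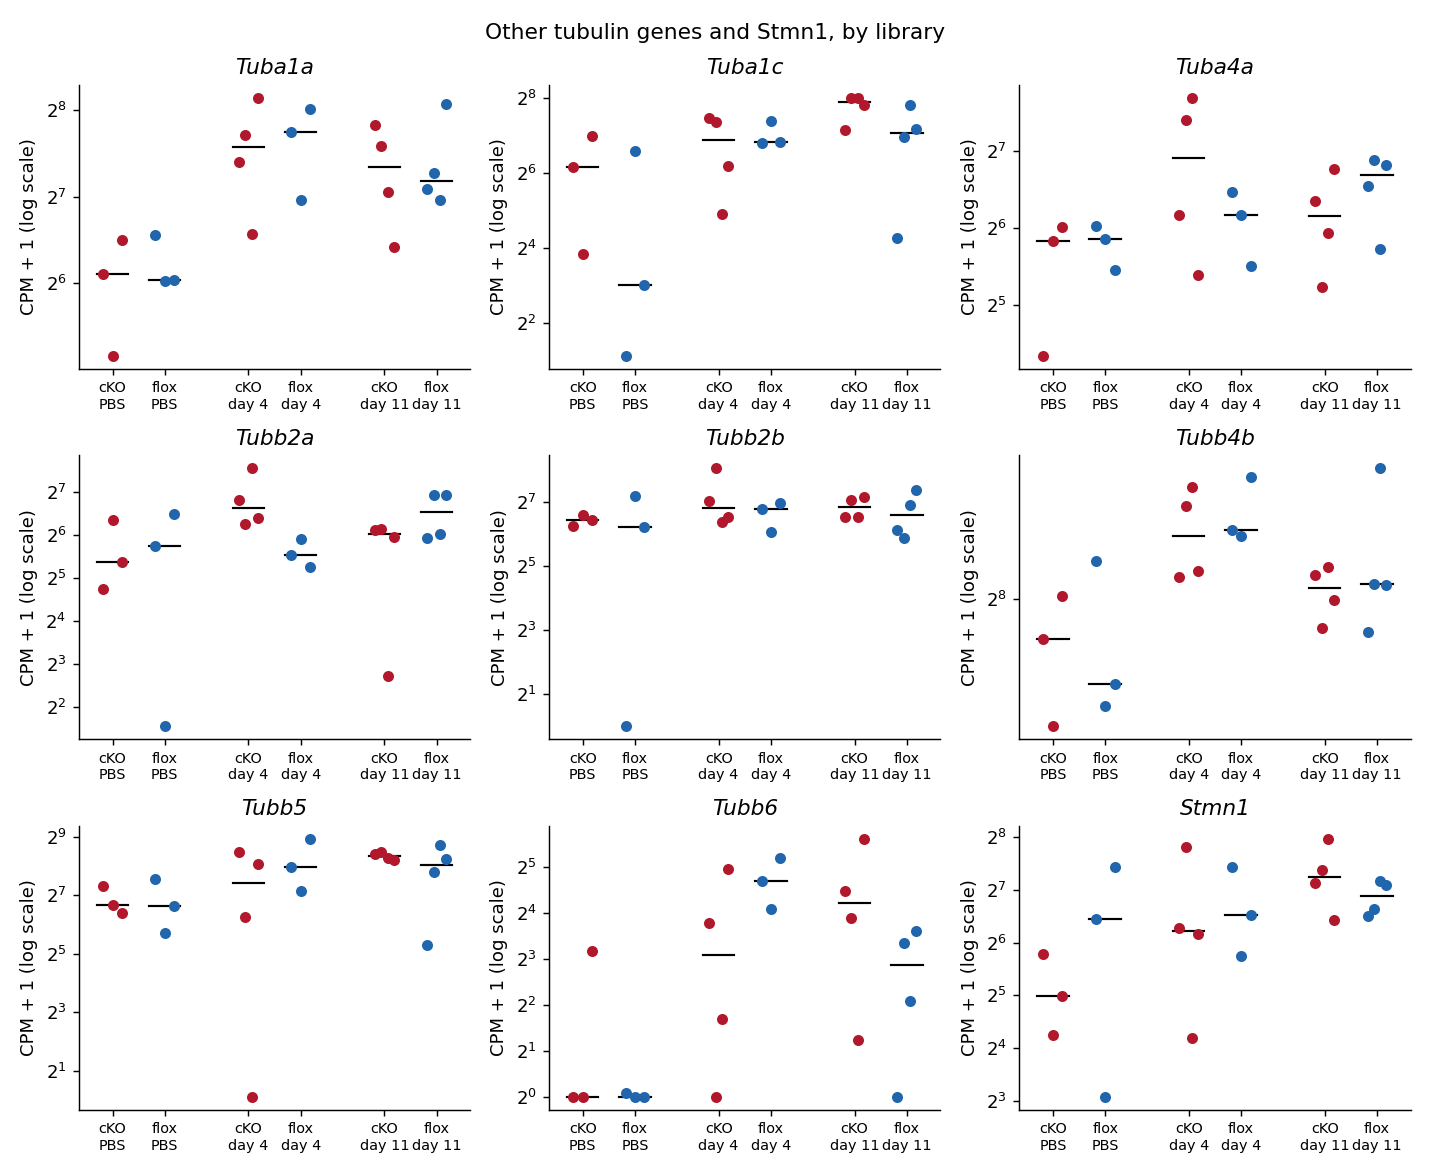
Level of the other 9 genes (CPM + 1, vertical log axis) in each library, by stage, with cKO in red left of flox in blue; points are libraries and lines the group medians. Tuba1a and Tubb4b show compact groups. Tubb5, Tubb2a, Tubb2b and Tuba1c each have libraries far below the rest, such as Tubb5 at 1 read in cKO day 4 replicate 3, and Tubb6 has at most 1 read in 7 of the 21 libraries, 5 of them PBS libraries.

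Summed over the 4 alpha-tubulin genes, which does not depend on how reads were divided among these 4, the level was 668 ± 53.6 CPM in cKO PBS and 500 ± 24.8 CPM in flox PBS libraries, 1404 ± 302 CPM in cKO day 4 and 1313 ± 328 CPM in flox day 4 libraries, and 1094 ± 56.0 CPM in cKO day 11 libraries (SD, n = 3 or 4). The 4 flox day 11 libraries averaged 1095 CPM and ran from 964 to 1347 CPM. The lowest nephritis library was at 959 CPM and the highest PBS library at 727 CPM, and most of this sum is Tuba1b, the gene the group was chosen by. Without Tuba1b, the other 3 alpha-tubulin genes summed to 328 to 541 CPM at day 4 and 246 to 525 CPM at day 11, against 104 to 279 CPM in PBS mice, so that day 11 overlapped with PBS. The 5 beta-tubulin genes summed to 457 ± 29.5 CPM in cKO PBS and 443 ± 93.5 CPM in flox PBS libraries, to 786 ± 84.9 CPM in cKO day 4 and 837 ± 257 CPM in flox day 4 libraries, and to 775 ± 47.7 CPM in cKO day 11 and 749 ± 287 CPM in flox day 11 libraries. Beta-tubulin was at or above 616 CPM in all day 4 libraries, against at most 540 CPM in PBS libraries, and flox day 11 replicate 1 was at 387 CPM. Tuba1b made up 66.8% ± 7.67 of the alpha-tubulin level and Tubb4b 42.8% ± 9.46 of the beta-tubulin level over all libraries (SD, n = 21). At day 11 Tuba1b made up 58.8% ± 3.50 of alpha-tubulin in cKO and 64.6% ± 7.08 in flox libraries (SD, n = 4 each), and Tubb5 made up 42.2% ± 3.67 of beta-tubulin in cKO and 29.2% ± 13.2 in flox libraries (SD, n = 4 each), and both shares overlapped between genotypes.

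**Figure D3:**
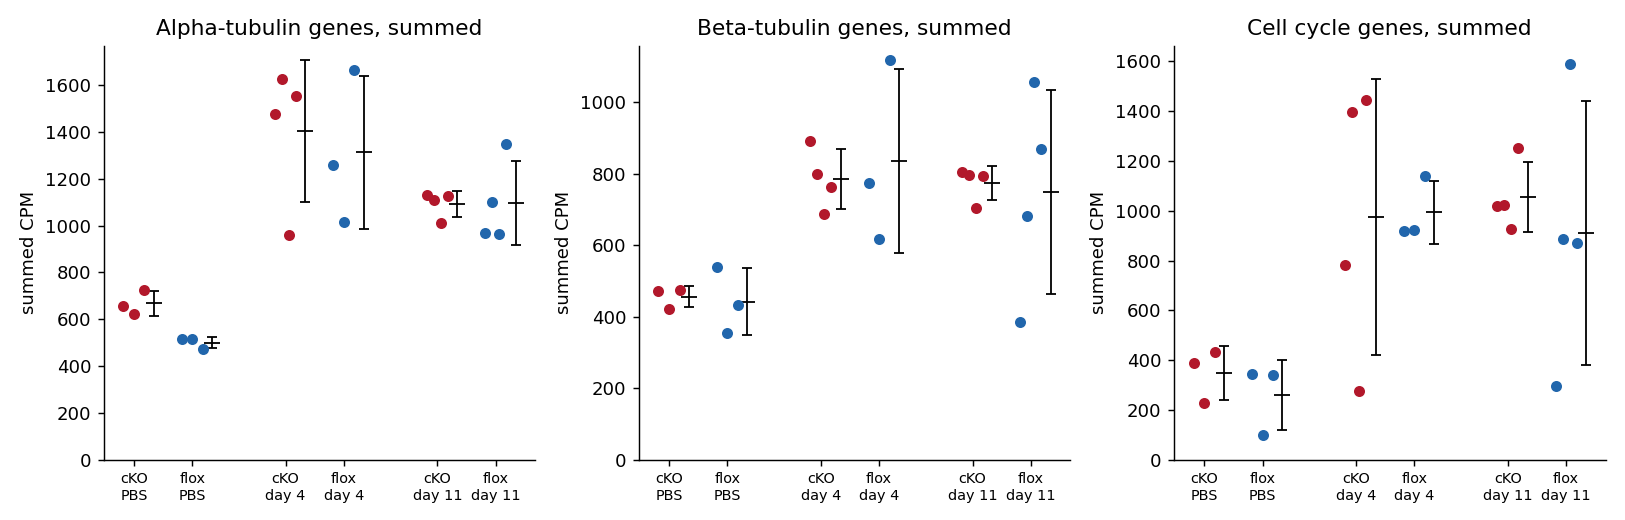
Summed CPM (vertical axes, linear from 0) of the 4 alpha-tubulin genes, the 5 beta-tubulin genes and 30 cell cycle genes in each library, by stage, with cKO in red left of flox in blue; bars beside the points are the mean ± SD of the group (n = 3 or 4). Alpha-tubulin, mostly Tuba1b, lies at 959 CPM or more in every nephritis library and at 727 CPM or less in every PBS library, whereas beta-tubulin and cell cycle genes overlap through single libraries.

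At day 4, all 10 genes were above PBS in the mean of both genotypes, as were 50.5% of all genes tested. The log2 fold change, given without a test, was 1.23 ± 0.18 for Tuba1b, 1.49 ± 0.36 for Tuba1a, 1.28 ± 0.70 for Tuba1c and 0.85 ± 0.50 for Tuba4a (SE), and that of Tuba1c was 2.82 without flox PBS replicate 2. Among the beta-tubulin genes it was 0.78 ± 0.24 for Tubb4b, 0.998 ± 0.86 for Tubb5 and 0.60 for both Tubb2a and Tubb2b, and for Stmn1 it was 0.88 ± 0.54. In cKO mice 10 of 10 genes and in flox mice 9 of 10 were above PBS, Tubb2a in flox mice being at -0.02, against 45.4% and 52.4% of all genes. Nothing is read from these counts, since the group was chosen by this contrast and they include Tuba1b and Tubb6.

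At day 11 the comparison with PBS asks whether tubulin and stathmin mRNA stayed apart from control glomeruli in established disease. In the mean of both genotypes all 10 genes were again higher than in PBS mice, and 52.9% of all genes tested were. Without Tubb6 their median was 0.73 on the log2 scale, against 0.07 for all genes. Neither the direction nor the median is read as support. Both include Tuba1b and rest on the PBS libraries the group was chosen by, and the direction also counts Tubb6. None of the 10 passed an adjusted p of 0.05 in edgeR's quasi-likelihood test, where 0.122% of all genes did. At an unadjusted p under 0.05 there were 4 of the 9 genes other than Tubb6, all higher, against 6.17% of all genes higher. The 4 include Tuba1b, the gene the group was chosen by, and Tuba1a and Tuba1c, between which and Tuba1b reads can have been divided. They are thus not separate results, and the count is not read as support. Tuba1b had a log2 fold change of 0.73 ± 0.18 (SE; 8 of 8 day 11 libraries above every PBS library; edgeR adjusted p = 0.11). The adjusted p of Tuba1b ran from 0.00019 to 0.44 over the alternative analyses. DESeq2 called Tuba1b, Tuba1a and Tubb6, against 7.95% of all genes, and limma voom called 0 of the 10, against 0.568%. With the 3 Tuba1 genes summed into 1 feature, an analysis added after the data were seen, edgeR gave a log2 fold change of 0.94 and an adjusted p of 0.0044. Most of that sum is Tuba1b, the gene the group was chosen by, so it is not separate support. Without the cKO day 4 and day 11 replicate 3 libraries Tuba1b passed in edgeR with an adjusted p of 0.039.

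The other 3 of these 4 were Tuba1a with a log2 fold change of 1.26 ± 0.35 (edgeR adjusted p = 0.23), Tuba1c with 1.77 ± 0.69 (edgeR adjusted p = 0.39) and Stmn1 with 1.31 ± 0.54 (SE; edgeR adjusted p = 0.41). Tubb6 had a fitted 5.44 ± 2.16 (SE; edgeR adjusted p = 0.38), which was 9.71 without cKO PBS replicate 3, the 1 PBS library in which it had more than 1 read. Without flox PBS replicate 2, in which Tuba1c was far above the other flox PBS libraries, Tuba1c reached 3.30 with an edgeR adjusted p of 0.018. Tuba4a, Tubb5, Tubb4b, Tubb2a and Tubb2b had log2 fold changes from 0.44 to 1.32 with edgeR adjusted p-values from 0.60 to 1.0.

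Within genotypes the order of the genes differed. In cKO mice the day 11 libraries of Tuba1b, Tuba1c, Tubb5 and Stmn1, 4 of the 10 genes, all lay above PBS, against 2.75% of all genes. None passed edgeR's test at an adjusted p of 0.05, where 0.0504% of all genes did, and the smallest p was that of Stmn1, with a log2 fold change of 2.21 ± 0.79 (SE; unadjusted p = 0.0087, edgeR adjusted p = 0.81). Tuba1a was at 1.31 ± 0.49 and Tuba1b at 0.40 ± 0.25. In flox mice the day 11 libraries of Tuba1a and Tuba1b, 2 of the 10 genes, lay above PBS, against 4.25% of all genes, and none passed edgeR's test, where 0% of all genes did. Tuba1b had a log2 fold change of 1.06 ± 0.25 in flox mice (SE; edgeR adjusted p = 0.25), with 2 of the 9 genes other than Tubb6 at an unadjusted p under 0.05, against 8.25% of all genes, and Tuba1b and Tubb6 called by DESeq2, against 8.26%, and 0 by limma voom, against 0.165%. In cKO mice 2 of the 10 had an unadjusted p under 0.05, against 6.02% of all genes, and DESeq2 and limma voom called 0, against 4.37% and 0.576%. These counts rest on the PBS libraries the group was chosen by, and the Tuba1 genes can share reads, so they are not read as support. Stmn1 was at 0.40 ± 0.74 in flox mice and reached -0.14 without flox PBS replicate 2. From day 4 to day 11 Tuba1b differed by -0.50 ± 0.17 and Stmn1 by 0.43 ± 0.50 on the log2 scale in the mean of genotypes, given without a test.

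**Figure D4:**
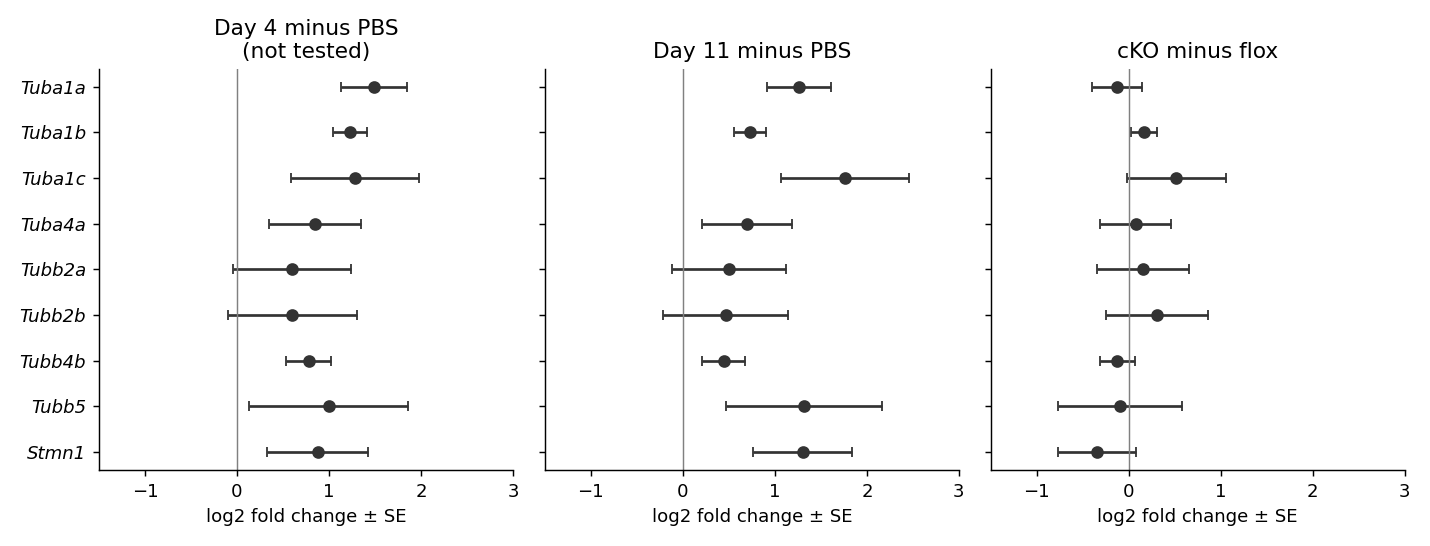
Log2 fold change ± SE (horizontal axes) of 9 of the genes for day 4 minus PBS and day 11 minus PBS (means of genotypes) and for cKO minus flox (mean of stages); Tubb6, with few PBS reads, is left out. All 9 genes lie above 0 in both nephritis panels, with the smallest errors for Tuba1b and Tubb4b, and lie on both sides of 0 between genotypes.

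Between genotypes, the question is whether loss of Epac1 in podocytes shifts tubulin and stathmin mRNA in glomeruli. Averaged over stages, 6 of the 10 genes were higher and 4 lower in cKO than in flox mice, and 50.7% of all genes were higher. None passed edgeR's test at an adjusted p of 0.05, where 0.0072% of all genes did, 0 had an unadjusted p under 0.05, against 6.62% of all genes, and DESeq2 and limma voom called 0, against 6.48% and 0.0144%. Tuba1b differed by 0.17 ± 0.14 on the log2 scale, with a 95% interval of -0.12 to 0.46, and Tubb4b by -0.12 ± 0.19 with an interval of -0.51 to 0.26 (edgeR adjusted p = 1.0 for both). Stmn1 differed by -0.34 ± 0.42 with an interval of -1.21 to 0.52. Tuba1a differed by -0.13 ± 0.27 and Tuba1c by 0.52 ± 0.54.

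In PBS mice Tuba1b was the 1 gene of the 10 whose cKO libraries all lay above the flox libraries, against 7.91% of all genes. Its log2 difference was 0.53 ± 0.26 (SE; unadjusted p = 0.051, edgeR adjusted p = 0.73), and Tubb6, through 1 cKO library, was the 1 gene with an unadjusted p under 0.05, against 6.02% of all genes. Stmn1 was at -1.36 ± 0.80 in PBS mice, from -1.91 to -0.46 when each library was left out, at -0.12 ± 0.73 at day 4 and at 0.45 ± 0.68 at day 11. At day 4 Tubb2a was the 1 gene whose cKO libraries all lay above the flox libraries, against 1.09% of all genes, with a log2 difference of 1.28 ± 0.90 (SE; edgeR adjusted p = 0.96), and Tuba1b was at 0.10 ± 0.25. At day 11 the genotypes overlapped for 10 of 10 genes, where 1.23% of all genes had every cKO library above and 1.42% every cKO library below the flox libraries, and Tuba1b was at -0.13 ± 0.23. At each of the 3 stages edgeR, DESeq2 and limma voom called 0 of the 10, where edgeR called 0% of all genes, DESeq2 6.24% in PBS mice, 5.68% at day 4 and 3.52% at day 11, and limma voom 0.18%, 0.13% and 0.0791%. In these comparisons, at day 4 and day 11 0 of the 10 had an unadjusted p under 0.05, against 7.42% and 5.86% of all genes.

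The change from PBS was also compared between genotypes with an interaction term. The difference of the changes, cKO minus flox, was -0.43 ± 0.36 at day 4 and -0.66 ± 0.35 at day 11 for Tuba1b (SE; edgeR adjusted p = 1.0 and 0.75), and 1.24 ± 1.08 and 1.81 ± 1.05 for Stmn1 (SE; edgeR adjusted p = 1.0 and 0.81). Without flox PBS replicate 3 the Stmn1 terms were 0.36 and 0.90, and without flox day 4 replicate 3 the day 4 term of Tuba1b was -0.13. Both terms rest on the same PBS libraries as the comparisons above, and the medians of all genes were -0.28 and -0.20. For neither stage did edgeR, DESeq2 or limma voom call any of the 10, where edgeR called 0% of all genes, DESeq2 8.1% at day 4 and 6.81% at day 11, and limma voom 0.0576% and 0%, and 0 of the 10 had an unadjusted p under 0.05, against 7.74% at day 4 and 6.94% at day 11 of all genes.

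The 10 genes differed widely in how much libraries of a group varied. The SD of log2 CPM within groups was 0.29 for Tuba1b, 0.35 for Tubb4b, 0.58 for Tuba1a and 0.74 for Tuba4a, and it was 1.22 for Stmn1, 1.42 for Tubb2a, 1.60 for Tuba1c, 2.14 for Tubb2b, 2.43 for Tubb5 and 2.67 for Tubb6. Likeness of pattern was measured as the root mean square difference of log2 CPM standardized over the 21 libraries, which is 0 for identical patterns and 1.41 for unrelated ones. Tuba1a and Tuba1b were the closest pair at 0.69, followed by Tuba1c and Tubb2b at 0.73. Reads can have been divided between Tuba1a and Tuba1b, so their distance depends on how they were split. The 5 genes outside the group most like Tuba1b, of 3466 candidates, were Myl12a at 0.59, which encodes a myosin light chain, Tpm4 at 0.66, a tropomyosin, Dag1 at 0.66, dystroglycan, Actg1 at 0.67, cytoplasmic gamma-actin, and Inppl1 at 0.67, an inositol phosphatase. The 5 most like Stmn1 were Col4a2 at 0.64, a collagen of basement membranes, S100a11 at 0.66, Sparc at 0.67, a matrix protein, S100a4 at 0.68, and Ninj1 at 0.69. All of these distances rest on shared libraries and on differences between stages.

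In 11 lists of microtubule and cell cycle genes, 137 genes were tested, and edgeR called 0 of them in day 4 minus PBS (0.0216% of all genes called), day 11 minus PBS and cKO minus flox, averaged over the other factor. DESeq2, which tested 149 of the list genes, called 15, 17 and 7, and limma voom 1, 3 and 0. Of all genes, DESeq2 called 8.78%, 7.95% and 6.48% and limma voom 0.0935%, 0.568% and 0.0144% in these comparisons. The DESeq2 calls were uneven between lists, with 10, 11 and 3 of them among the 30 cell cycle genes. The lists were chosen with earlier results of these data known, so these counts are not read as support. At day 4 against PBS the list of other stathmins had the highest median, 3.04 on the log2 scale, from 1 tested gene. Among the remaining lists, cell cycle genes stood highest at day 4 and day 11 against PBS. Of 29 tested, 26 were higher at day 4 and 26 at day 11 than in PBS mice, with median log2 fold changes of 2.75 and 2.63, or 2.73 and 2.43 with groups without reads set at 3 counts over the group. At day 11, 13 of the 29 had an unadjusted p under 0.05, all higher, against 6.17% of all genes. For 9 of the 29 a compared group had no reads. A gene that passed the low-count filter through the nephritis libraries tends to come out higher, so this count is not read as support. The genes called by limma voom at day 11 were Ccnb2, a mitotic cyclin, Prc1, which bundles spindle microtubules, and Ube2c, a mitotic ubiquitin-conjugating enzyme. The summed level of the list was 927 to 1253 CPM in cKO day 11 and 297 to 1588 CPM in flox day 11 libraries, against 227 to 434 CPM in cKO PBS and 98.0 to 344 CPM in flox PBS libraries. Mcm5, a subunit of the replicative helicase, averaged 14.2 ± 11.6 CPM in cKO day 11 and 34.3 ± 20.9 CPM in flox day 11 libraries, against 11.4 ± 9.88 CPM in cKO PBS libraries, and was at 0 in flox PBS libraries (SD; edgeR adjusted p = 0.16).

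Genes of tubulin folding, which carry new tubulin to the assembled dimer, were near the level of all genes. Of 21 tested, 11 were higher at day 4 and 11 at day 11, with median log2 fold changes of 0.03 and 0.07, and the smallest p at both stages was that of the prefoldin subunit Pfdn5, which was at -0.69 ± 0.34 at day 4 and -0.61 ± 0.32 at day 11 (SE; edgeR adjusted p = 0.60 at day 11). Of 4 genes known from the control of tubulin mRNA stability, 3 were higher at day 11, and Ttc5, the factor that recognises new tubulin chains, averaged 11.0 ± 12.8 CPM in cKO day 11 and 7.69 ± 6.74 CPM in flox day 11 libraries, against 1.28 ± 2.22 CPM in cKO PBS libraries and 0 in flox PBS libraries (SD; edgeR adjusted p = 0.43). Of 11 genes of microtubule nucleation, 6 were higher at day 11. Cdk5rap2, which anchors the nucleating complex at the centrosome, averaged 64.8 ± 67.7 CPM in cKO day 4 and 68.6 ± 40.8 CPM in flox day 4 libraries, 18.0 ± 15.7 CPM in cKO day 11 and 15.6 ± 20.6 CPM in flox day 11 libraries, and 5.72 ± 5.38 CPM in cKO PBS libraries, and was at 0 in flox PBS libraries (SD). At day 4 against PBS the edgeR adjusted p of Cdk5rap2 was 0.17, and DESeq2 and limma voom called it. At day 11 its edgeR adjusted p was 0.16, and DESeq2 called it but limma voom did not. Both comparisons rest in part on the flox PBS libraries, in which it had no reads.

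Among microtubule-associated proteins, 7 of 14 were higher at day 11, and Mapt, which encodes the filament-binding protein tau, was lower. It averaged 547.6 ± 197.1 CPM in cKO day 11 and 588 ± 205 CPM in flox day 11 libraries, against 1183 ± 302 CPM in cKO PBS and 948 ± 381 CPM in flox PBS libraries (SD, n = 3 or 4), a log2 fold change of -0.90 ± 0.22 (SE; edgeR adjusted p = 0.10, and 0.0033 to 0.41 over the alternatives). At day 4 Mapt was at -0.82 ± 0.23. Of 13 genes that bind microtubule ends, 9 were higher at day 11, and Mapre1, which tracks growing ends, averaged 391 ± 81.1 CPM in cKO day 11 and 260 ± 83.3 CPM in flox day 11 libraries, against 176 ± 27.4 CPM in cKO PBS and 202 ± 43.0 CPM in flox PBS libraries (SD; log2 fold change 0.76 ± 0.28, edgeR adjusted p = 0.34). Clip2 had the smallest p of that list at day 4 against PBS. It averaged 27.2 ± 43.0 CPM in cKO day 4 libraries and 0 in flox day 4 libraries. In PBS libraries Clip2 averaged 23.2 ± 20.2 CPM in cKO and 30.9 ± 29.0 CPM in flox mice (SD), so only the flox mean was lower at day 4.

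Of 15 motor genes, 12 were higher at day 11, and the kinesin gene Kif1b was at -0.61 ± 0.32 (SE; edgeR adjusted p = 0.61). Tubulin-modifying enzymes were higher for 12 of 15, and severing and depolymerising factors for 5 of 9, with the smallest p at day 11 for Ttll3 and Kif2c, both at 0 reads in flox PBS libraries and at or under 8.96 CPM on average elsewhere. Hdac6, a tubulin deacetylase, had the smallest p of the modifying enzymes at day 4, with 0 CPM in cKO and 0.863 CPM in flox libraries. It averaged 6.33 ± 11.0 CPM in cKO PBS and 11.5 ± 14.4 CPM in flox PBS libraries (SD). Of the other tubulin genes, 1 of 5 tested was higher at day 11, and Tube1 was at 0 in cKO and 0.0106 CPM in flox day 11 libraries, against 1.48 and 2.82 CPM in cKO and flox PBS libraries. Tuba8 was at 0 in cKO and 0.338 CPM in flox day 4 libraries, against 1.60 and 0.461 CPM in cKO and flox PBS libraries. The neuronal stathmin gene Stmn2 averaged 1.5 ± 3.0 CPM in cKO day 11 and 19.0 ± 34.9 CPM in flox day 11 libraries, against 0.123 ± 0.126 CPM in cKO PBS and 14.7 ± 21.0 CPM in flox PBS libraries (SD).

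Between genotypes, averaged over stages, the smallest unadjusted p in these lists was 0.0030, for the tubulin deglutamylase gene Agbl5, with an edgeR adjusted p of 0.51. Agbl5 averaged 5.95 ± 10.3 CPM in cKO PBS, 14.1 ± 28.2 CPM in cKO day 4 and 8.29 ± 16.6 CPM in cKO day 11 libraries, with SDs above the means, against 0 CPM in flox PBS and flox day 4 libraries and 0.112 ± 0.224 CPM in flox day 11 libraries (SD, n = 3 or 4). SDs of this size arise when nearly all reads of a cKO group come from a lone library, so few libraries may carry the difference. When each of the 21 libraries was left out in turn, Agbl5 was tested in 19 of the fits. Map1b differed by 1.13 ± 0.54 and the folding factor gene Tbca by 0.40 ± 0.22 on the log2 scale (SE; edgeR adjusted p = 0.74 and 0.86), Kif1b by -0.40 ± 0.27, and Kif18a averaged 0.0117 ± 0.0233 CPM in cKO day 4 and 14.7 ± 9.71 CPM in flox day 4 libraries, and 1.43 ± 2.86 CPM in cKO day 11 and 2.27 ± 4.45 CPM in flox day 11 libraries (SD).

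Of 87 markers of glomerular and other cells, edgeR called 0 at day 4 and 1 at day 11 against PBS, Acta2, a smooth muscle actin gene of the mesangial list named after its value was seen, with a log2 fold change of 1.39 ± 0.28 (SE; edgeR adjusted p = 0.029). Of all genes, 50.5% were higher at day 4 and 52.9% at day 11 than in PBS mice. By direction alone, macrophage markers were higher at day 4 for 9 and at day 11 for 10 of 12 tested. Their summed level was 77.7 to 598 CPM in cKO day 4 and 267 to 375 CPM in flox day 4 libraries. At day 11 it was 341 to 484 CPM in cKO and 143 to 436 CPM in flox libraries, against 193 to 284 CPM in cKO PBS and 224 to 398 CPM in flox PBS libraries. These sums overlapped with PBS in both genotypes at day 4 and in flox mice at day 11. At day 4, proximal tubule markers were higher for 9 of 12, distal nephron markers for 7 of 10 and parietal epithelial markers for 5 of 7, podocyte markers were lower for 7 of 12 and erythrocyte markers for 5 of 6. At day 11, parietal epithelial markers were higher for 6 of 7, podocyte markers lower for 10 of 12, proximal tubule markers lower for 10 of 12, distal nephron markers lower for 9 of 10 and erythrocyte markers lower for 5 of 6. Glomerular endothelial markers were higher for 5 of 10, mesangial markers for 5 of 9, T cell markers for 2 of 5 and neutrophil markers for 2 of 4, and the neutrophil markers Ly6g, Csf3r and Mpo had no read in any library. The part of these cells in the tubulin and stathmin values was not tested.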

How the data were processed

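Estimated counts, as deposited by the authors with no normalization, were the values used; the TPM deposited beside them were not used. The submitters' processing notes name the mm10 build and the tools Picard, DRAGEN, fastp and FastQC; their roles and versions, the strand setting, the handling of duplicates and the authors' annotation were not given in the sources used. Of the deposited estimated counts, 95.2% of those above 0 were whole within 0.005. Identifiers were matched to GENCODE M21 for 99.8% of genes. No 2 libraries were identical.

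Rounded counts entered a robust quasi-likelihood F test (edgeR 4.0.16, R 4.3.3) with TMM scaling, 6 group means, 15 residual degrees of freedom and filterByExpr at a minimum count of 10, and p-values were adjusted over 13898 genes by Benjamini-Hochberg. The common biological coefficient of variation was 1.66. DESeq2 1.42.0 and limma 3.58.1 (voom) were alternatives. CPM are counts scaled by TMM-adjusted library size. The fit was tested on simulated data. Members and lists were chosen with earlier results of these data known. All 10 genes are named, and from each list the gene with the smallest p in each mean comparison, of which 1 is not reported here. RefSeq promoters were searched as plain letters. Of marker lists, counts, sums and the 1 called gene are given.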

Additional observations from a re-analysis of the deposited data

Results flagged for a closer look

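Tubb2a stood apart in 1 of the 4 cKO day 11 libraries. It was at 5.60 CPM in replicate 3, the library with the fewest reads, against 60.5 to 69.3 CPM in the other 3, and the gap to the nearest of them was 0.861 of the whole range, above the 95% critical value for 4 libraries. It was the only such value among 30 gene and group combinations tested, of which chance gives about 1 in 20.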

How the results depend on the processing

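Of the 9 tested comparisons, 7 had 0 of the 10 genes called under every alternative. For day 11 minus PBS in the mean of genotypes, edgeR called 0, DESeq2 called 3 (Tuba1b, Tuba1a and Tubb6), edgeR without the cKO day 4 and day 11 replicate 3 libraries 1 (Tuba1b), the added analysis with copies summed 1 (the sum of Tuba1a, Tuba1b and Tuba1c), and leaving out each library in turn gave 0 to 1, with Tuba1c called without flox PBS replicate 2. For flox day 11 minus flox PBS, DESeq2 called 2 (Tuba1b and Tubb6). The causes were not tested. All 10 genes kept their direction at day 11 against PBS in the mean of genotypes, and Tuba1b ran from 0.66 to 0.78 on the log2 scale. This is not read as support, since the group was chosen by a contrast with the same PBS libraries.

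Some directions turned. Stmn1 in cKO minus flox at day 4 turned to 0.18 with the replicate block and to 0.23 without the cKO day 4 and day 11 replicate 3 libraries, and ran from -0.94 to 0.43 when each library was left out. Stmn1 in flox day 11 minus flox PBS ran from -0.14 to 1.32 and Tuba1b in cKO minus flox at day 4 from -0.082 to 0.40 when each library was left out. The sum of the 3 Tuba1 genes was at 0.029 in cKO minus flox at day 11. Among list genes with few reads, Stmn2 at day 11 was at -1.02 in limma voom, and leaving out each library gave -1.93 to 3.21 for Stmn2 and -1.05 to 7.16 for Ttll3 at day 11 and -0.55 to 2.19 for Ttc5 in cKO minus flox.

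The replicate block, a term for the replicate number in the labels, left 0 of the 10 called in all 9 comparisons, with Tuba1b at 0.66 at day 11 against PBS. Same-numbered libraries of different groups did not deviate together: over 48 pairs the correlation of deviations ran from -0.08 to 0.06, and 5 of 21 libraries correlated best with their own number. Tubb5, Tubb6, Tubb2b and Tuba1c, with SDs within groups over 1.5 on the log2 scale, are measured least firmly.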
